A study of Mus musculus with 8 samples.

Results

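The genes described here are those of the replication-dependent histones, the linker histone H1 and the core histones H2A, H2B, H3 and H4, measured in regulatory T cells (Tregs) of mice labelled as lacking Bcl6 (KO) and of wild-type (WT) mice. Probe sets were taken where every gene symbol of the platform annotation began with Hist1h, Hist2h, Hist3h or Hist4h, or with the current H1f, H2ac, H2bc, H3c or H4c. The rule found 47 of 28768 probe sets, naming 47 genes: 8 probe sets of H1, 4 of H2a, 9 of H2b, 13 of H3, 12 of H4 and 1 shared by an H1 and an H2b gene. It also took in 5 probe sets of germ line genes (H1f6, H1f7, H1f8, H2ac1 and H2bc1) and 1 of the replacement linker histone H1f10 (formerly H1fx), which were counted apart from the other 41. H1f0 was not analysed here.

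Histone octamers of H2A, H2B, H3 and H4 wrap DNA into nucleosomes, and H1 binds the linker DNA between them. The replication-dependent genes lie mostly in clusters, are transcribed mainly in S phase under the coactivator NPAT, and give mRNAs that end in a stem-loop bound by SLBP instead of a poly(A) tail. Activated T cells that enter division make these mRNAs as they copy their DNA. Bcl6 encodes a repressor of transcription best known for directing follicular helper T cells, and FoxP3 is the transcription factor that marks Tregs.

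FoxP3+ Tregs had been sorted from Bcl6-/- and wild-type mice. Cells of both genotypes were activated for 16 h with antibodies to CD3 and CD28. Each Affymetrix whole-transcript array received labelled material from 100 ng of total RNA, from which ribosomal RNA had not been removed. Such labelling does not depend on a poly(A) tail. The 4 KO-labelled arrays are KO 1A, KO 1B, KO 2A and KO 2B and the 4 WT arrays are WT 1A, WT 1B, WT 2A and WT 2B, where the number is called the preparation below. The labels give no age and do not say which part of Bcl6 was deleted. Nor do they say whether a new number or letter means another animal, culture or RNA extract. The p-values therefore measure the spread among these arrays, part or all of which may be technical, and the small number of arrays limits precision.

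The values are log2 expression levels per probe set. Array medians lay between 6.8 and 7.13, but the values of KO 1A and KO 1B were more widely spread (SD over all probe sets 1.87 and 1.84) than those of the other 6 arrays (1.56 to 1.7). Bcl6 itself read 9.0, 8.82, 8.54 and 8.51 in KO 1A, 1B, 2A and 2B and 7.97, 8.36, 8.33 and 7.86 in WT 1A, 1B, 2A and 2B. It was therefore above every WT array in all 4 arrays labelled KO, which does not check the genotype, and those arrays are called KO-labelled. The mean over 3 Y-linked genes lay between 4.62 and 4.8 in KO-labelled arrays and between 6.94 and 8.3 in WT, so effects of sex and of the genotype label cannot be told apart. All 8 Treg markers were well above the array medians, with a mean of 10.76 to 11.41 in KO-labelled arrays and 10.05 to 10.78 in WT. The mean over markers of CD8 T and NK cells (4 of 4 measured) was 5.94 to 6.26 against 6.16 to 6.36, of B cells (3 of 4) 5.11 to 5.33 against 5.21 to 5.45, of myeloid cells (5 of 5) 5.98 to 6.28 against 5.98 to 6.29, and of erythroid cells (1 of 4) 6.37 to 6.74 against 6.02 to 6.39.

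Promoter sequence shows what the histone genes share beside their products. Of the named genes, 42 had a window in the RefSeq table (GRCm38.p6), 43 windows in all, and 36 of these lie on chromosome 13, 4 on chromosome 3, 2 on chromosome 6 and 1 on chromosome 15. The 200 bases before the annotated start were searched on both strands for CCAAT, the box bound by the factor NF-Y; for TATAA, the core of the TATA box; and for ATTTGCAT, the octamer bound by OCT1. No motif contains another, and capitals below mark every match, with those on the opposite strand shown as their reverse complement. The sequences, 5′ to 3′ on the strand of the gene, are those of the H1, H2a, H2b and H4 genes with the largest difference between the groups, 1 of the 12 H3 genes whose transcripts a shared probe set reads, and H2bc22, whose own probe set barely differed.
H1f5 promoter, chr13:21780626-21780825, minus strand: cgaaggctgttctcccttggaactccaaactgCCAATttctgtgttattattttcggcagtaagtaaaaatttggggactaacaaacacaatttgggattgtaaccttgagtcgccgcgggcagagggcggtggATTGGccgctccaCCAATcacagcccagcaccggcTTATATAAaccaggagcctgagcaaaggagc
H2ac4 promoter, chr13:23750888-23751087, plus strand: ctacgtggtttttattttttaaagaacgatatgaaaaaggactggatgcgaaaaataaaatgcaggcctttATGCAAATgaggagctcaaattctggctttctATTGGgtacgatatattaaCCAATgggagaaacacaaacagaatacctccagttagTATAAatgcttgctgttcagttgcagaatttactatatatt
H2bc14 promoter, chr13:21721844-21722043, plus strand: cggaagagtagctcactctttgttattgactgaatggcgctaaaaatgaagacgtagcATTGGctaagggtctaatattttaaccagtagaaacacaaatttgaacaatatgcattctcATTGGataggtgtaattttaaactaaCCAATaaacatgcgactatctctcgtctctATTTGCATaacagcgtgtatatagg
H2bc22 promoter, chr13:21787288-21787487, plus strand: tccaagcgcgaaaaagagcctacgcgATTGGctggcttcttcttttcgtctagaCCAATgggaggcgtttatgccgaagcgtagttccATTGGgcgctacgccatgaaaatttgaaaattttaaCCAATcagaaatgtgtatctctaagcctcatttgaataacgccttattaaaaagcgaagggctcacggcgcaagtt
H3c2 promoter, chr13:23752145-23752344, plus strand: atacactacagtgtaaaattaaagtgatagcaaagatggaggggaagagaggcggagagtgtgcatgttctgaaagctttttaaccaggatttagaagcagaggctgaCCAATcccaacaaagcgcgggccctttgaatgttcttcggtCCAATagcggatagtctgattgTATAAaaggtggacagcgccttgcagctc
H4c6 promoter, chr13:23551669-23551868, minus strand: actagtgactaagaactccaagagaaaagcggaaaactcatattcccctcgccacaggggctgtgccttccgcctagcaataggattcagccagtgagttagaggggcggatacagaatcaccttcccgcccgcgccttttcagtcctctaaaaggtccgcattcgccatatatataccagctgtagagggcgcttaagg
CCAAT was present in 73% of the 37 windows of replication-dependent genes, against 29.3% of all 32851 windows of the same length. TATAA was present in 56.8% against 18.5%, and the octamer in 18.9% against 1.38%. The motifs were spread unevenly over the types. CCAAT was in 5 of 5 H1, 3 of 3 H2a, 8 of 8 H2b and 8 of 10 H3 windows but in 3 of 11 H4 windows, and the octamer was in 2 of 3 H2a and 5 of 8 H2b windows and in none of the H1, H3 or H4 windows. H2ac8 and H2bc8 are divergent neighbours and their windows overlap (chr13:23571221-23571420, minus strand, and chr13:23571200-23571399, plus strand), so they share their matches. The windows are a description of sequence only: that of H2bc22 held 4 CCAAT boxes and that of H4c6 held no match.

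Histone transcripts were higher in the KO-labelled arrays than in WT, and by more in preparation KO 1 than in KO 2. However, limma called no histone probe set when all 4 KO-labelled arrays were set against all 4 WT arrays. Inside the rule the differences lay mostly in H3 and H4 probe sets and in a few H1, H2a and H2b genes. That ranking rests partly on shared sets: 10 H3 sets are annotated to the same 12 genes and 5 H4 sets to the same 11. The 3 H3 sets with 1 symbol differed by 0.03 to 0.38. In 7 shared H2b sets just outside the rule the median was 1.53, against 1.54 for H3. With sets of the same genes averaged, the median over the members was 0.37. Over the 47 probe sets the median KO minus WT difference was 0.84 log2, against -0.08 over all 28768. The median was 1.38 for KO 1 minus WT and 0.36 for KO 2 minus WT, against -0.16 and 0.02 over all probe sets. These comparisons share the WT arrays. By array, the median deviation of the members from their WT mean was 1.58 in KO 1A, 1.18 in KO 1B, 0.43 in KO 2A and 0.36 in KO 2B, and -0.09, 0.21, 0.04 and -0.12 in WT 1A, 1B, 2A and 2B. In bulk RNA, fewer cells of a type and less RNA per cell cannot be told apart, and this holds for cells in S phase as well.

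Called below means a Benjamini-Hochberg adjusted p under 0.05 in limma, two-sided and adjusted over all probe sets. In KO minus WT with the labelled preparation as a random block, 0 of 47 histone probe sets were called, beside 0.104% of all probe sets called higher. At an unadjusted p under 0.05, 25 members were higher and 0 lower, beside 1436 higher and 258 lower over all probe sets. In 27 members every KO-labelled array lay above every WT array, which 6.13% of all probe sets did. Of the 27, 10 were the shared H3 sets and 5 the shared H4 sets. In 0 members every KO-labelled array lay below, beside 717 of all 28768 probe sets. The KO minus WT difference was above 1 log2 in 22 members, beside 468 of all 28768 probe sets. Of the 22, 10 were the H3 sets shared by the same 12 genes and 5 the H4 sets shared by the same 11. The call depended on how arrays were modelled: limma called 1 member after quantile normalization, 5 with no random block and 24 with array SD as a covariate, which called 7.21% of all probe sets higher and lowered the members' median difference to 0.33.

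With each preparation fitted on its own mean, 33 members were called higher in KO 1 than in WT, beside 25.6% of all probe sets, and 2 lower, beside 37.7%. The split over all probe sets, 7366 higher and 10834 lower, turned to 5431 higher and 4640 lower after quantile normalization and to 9932 higher and 4404 lower after centring arrays on their medians. That centring moved the median of all probe sets in KO 1 minus WT from -0.16 to 0.08. The members called higher were 37 and 41 under these scalings. In KO 2 minus WT 6 members were called higher and 0 lower, beside 0.622% of all probe sets called higher: H1f5 and 5 of the 10 H3 probe sets shared by the same genes. That count was 0 after median centring, beside 0.469% of all probe sets. It was not stable on leaving out 1 array, which leaves a preparation with 1 array. How many of all probe sets were called in those fits is not given here. The members' median difference lay between 0.33 and 0.43 in them. Between the KO preparations, 29 members were called higher and 2 lower in KO 1 than in KO 2. Over all probe sets 22.5% were called higher. The count of members was again not stable on leaving out 1 array, while their median difference lay between 0.88 and 1.1. The split over all probe sets in that contrast, 6459 higher and 8888 lower, became 2938 and 2239 after quantile normalization and 9359 and 2781 after median centring. In the same contrast of the controls, WT 1 minus WT 2, limma called 0 probe sets of any kind, with 365 at an unadjusted p under 0.05.

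**Figure D1:**
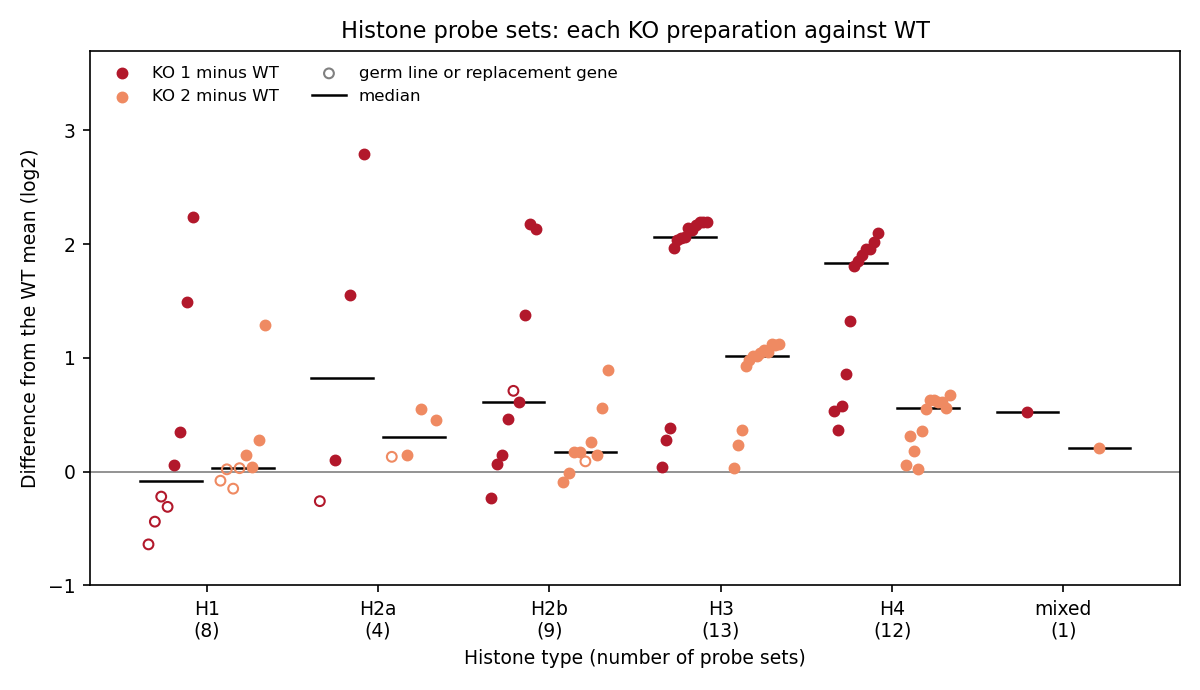
Difference from the WT mean in log2 (vertical axis) of each histone probe set by type (horizontal axis), for KO 1 in dark red and KO 2 in orange. Open circles are germ line or replacement genes and black lines are medians. The H3 medians are 2.06 and 1.02. The H1 medians are -0.08 and 0.04 over all 8 sets, and 0.92 and 0.21 over the 4 replication-dependent H1 sets.

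The spread of the arrays moved with these levels. Of the 41 replication-dependent members, 32 had their highest value of all in KO 1A, the array with the widest spread, and 37 had their highest WT value in WT 1B, which has the widest spread of the WT arrays (SD 1.7). With that spread as a covariate the members' median difference was 0.33, against 0.84 without it. Because KO 1A and KO 1B had the widest spread, that fit cannot separate the spread from preparation KO 1. The part of the spread in the differences was not tested.

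Among the linker histones, which fold nucleosome arrays, H1f5 and H1f1 were higher in KO 1 than in WT, while H1f2 and H1f3 were called only after other scalings. H1f5 (probe set 10408081) read 12.01 and 11.95 in KO 1A and 1B, 11.01 and 11.06 in KO 2A and 2B, and 9.51, 10.28, 9.74 and 9.42 in WT 1A, 1B, 2A and 2B. The groups did not overlap, and KO 1 was above KO 2. The KO minus WT difference of 1.77 ± 0.37 log2 (SE, 4 against 4 arrays, 3.41-fold) was not called by limma (adjusted p = 0.17). It was 2.24 ± 0.21 for KO 1 (limma adjusted p = 5.3e-05) and 1.29 ± 0.21 for KO 2 (limma adjusted p = 0.0177), and KO 1 exceeded KO 2 by 0.95 (limma adjusted p = 0.0119). H1f5 was the only 1-symbol histone probe set called in KO 2 minus WT, and its limma adjusted p there was between 0.0527 and 0.433 without KO 1A, 1B, 2A, 2B or WT 2B.

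H1f1 (10404069) read 9.51 and 9.32 in KO 1, 8.14 and 8.28 in KO 2, and 7.66, 8.1, 8.14 and 7.8 in WT 1A, 1B, 2A and 2B. Its KO 1 arrays stood well apart from WT, by 1.49 ± 0.17 log2 (limma adjusted p = 1.9e-04). KO 2A (8.14) was level with the highest WT array, and KO 2B (8.28) was a little above it. H1f2 differed from WT by 0.35 in KO 1 and 0.04 in KO 2, and H1f3 by 0.06 and 0.15, none of them called. In KO 1, H1f2 was called at 0.64 after quantile normalization and 0.60 after median centring (limma adjusted p = 0.0259 and 0.0154), and H1f3 at 0.33 and 0.30 (limma adjusted p = 0.0323 and 0.028). H1f4 could be read only through probe set 10408212, which it shares with H2bc6. That set read 7.93 and 8.06 in KO 1, 7.67 and 7.7 in KO 2 and 7.4, 7.62, 7.42 and 7.47 in the WT arrays, and was called higher in KO 1 (0.52 ± 0.14, limma adjusted p = 0.00888), a call that ended after quantile normalization (0.36, limma adjusted p = 0.0543). The groups did not overlap, though KO 2A lay only 0.05 above WT 1B on the rounded values.

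None of the testis and oocyte linker histones, H1f6, H1f7 and H1f8, was called higher. H1f7, the linker histone of spermatids, read 6.62 and 6.94 in KO 1, 7.22 and 7.45 in KO 2, and 7.51, 7.26, 7.45 and 7.43 in the WT arrays. It had the lowest KO minus WT difference of the H1 sets, -0.36 ± 0.26 (limma adjusted p = 0.697), and fell in KO 1 by 0.64 (limma adjusted p = 0.00561). H1f6, the testis H1t, was also called lower in KO 1 (-0.44, limma adjusted p = 0.0207), a call that ended after quantile normalization (-0.17, limma adjusted p = 0.338) and median centring (-0.20, limma adjusted p = 0.18). The oocyte gene H1f8 was at -0.31 in KO 1 and 0.03 in KO 2, and the replacement H1f10, which is made outside S phase, at -0.22 and -0.15, none of them called. Over the 6 germ line and replacement sets the median KO minus WT difference was -0.16, against 1.18 over the 41 replication-dependent sets. Of the 6, 5 were below 0 and 1, H2bc1, was at 0.4. All 6 have 1 symbol, while the 41 include the shared H3 and H4 sets. Among replication-dependent sets with 1 symbol, the median was 0.22 in the 14 with a mean below 7 log2. It was 0.97 in the 10 with a mean of at least 7.

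H2A and H2B pair as dimers on the outside of the nucleosome. H2ac4 (10404063) was the H2a gene with the largest KO minus WT difference. It read 8.13 and 7.35 in KO 1A and 1B, 5.55 and 5.24 in KO 2A and 2B, and 4.73, 5.1, 5.09 and 4.86 in WT 1A, 1B, 2A and 2B. The groups did not overlap, but KO 2B was only a little above WT 1B. The WT values lie under the array medians, and since their height above background is not known here, the size of the difference is uncertain. On the deposited scale KO 1 exceeded WT by 2.79 ± 0.2 log2 (limma adjusted p = 1.1e-05) and KO 2 by 2.34 (limma adjusted p = 6.1e-04), while KO 2 exceeded WT by 0.45 ± 0.2 (limma adjusted p = 0.754).

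H2ac15 (10408077) read 8.46 and 8.21 in KO 1, 7.32 and 7.35 in KO 2, and 6.78, 6.99, 6.82 and 6.54 in WT, with no overlap between groups. It was 1.55 ± 0.15 log2 higher in KO 1 (limma adjusted p = 5.7e-05) and 0.55 in KO 2 (limma adjusted p = 0.181). H2ac8 lay within 4.12 to 4.31 in all arrays and was not called in KO 1 (0.10), but was called there after quantile normalization (0.16, limma adjusted p = 0.0249) and median centring (0.35, limma adjusted p = 0.00454). H2ac1, a testis H2A, had the lowest H2a difference at -0.07, which was 0.03 after median centring. Its value in KO 1 minus WT was -0.26 (limma adjusted p = 0.114) and became a call only after quantile normalization (-0.54, limma adjusted p = 0.021).

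Of the 9 H2b probe sets, 6 were called higher in KO 1 than in WT, beside 25.6% of all probe sets, and 0 in KO 2, beside 0.622%. H2bc14 (10403943) read 9.93 and 9.71 in KO 1, 8.68 and 8.48 in KO 2, and 7.51, 8.3, 7.64 and 7.33 in WT 1A, 1B, 2A and 2B. The groups did not overlap, and WT 1B was the WT array nearest to KO 2. KO 1 exceeded WT by 2.13 ± 0.22 (limma adjusted p = 8.6e-05), and KO 2 exceeded it by 0.89 ± 0.22 (limma adjusted p = 0.127).

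H2bc3 (10404061) read 8.35 and 8.19 in KO 1, 6.79 and 6.51 in KO 2, and 5.86, 6.42, 6.16 and 5.94 in WT. Again the groups did not overlap, with KO 2B above WT 1B by 0.09 on the rounded values. It was 2.18 ± 0.17 log2 higher in KO 1 than in WT (limma adjusted p = 2.0e-05) and 1.62 higher than in KO 2 (limma adjusted p = 0.00142). H2bc18 was called at 1.38 and H2bc9 at 0.61 in KO 1, with 0.15 and 0.26 in KO 2, not called. The H2bc9 call ended after quantile normalization (0.09, limma adjusted p = 0.62). The germ line H2bc1 was called as well, at 0.71 in KO 1. H2bc4, H2bc22 and H2bc21 were not called as deposited: H2bc22 lay within 6.26 to 6.44 in all 8 arrays, and H2bc21, at -0.16 the lowest H2b, was at -0.23 in KO 1 (0.07 after quantile normalization). Other scalings called H2bc4 in KO 1 at 0.32 (quantile, limma adjusted p = 0.0354) and 0.39 (centring, limma adjusted p = 0.00915) and H2bc22 at 0.39 (limma adjusted p = 0.0284) and 0.31 (limma adjusted p = 0.0318), against 0.15 and 0.07 as deposited.

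Just outside the rule were 9 probe sets. In 7 of them, each naming 14 or 15 H2b genes, the only symbol to fail was H4bc24, which RefSeq lists with the older name Hist1h2br, an H2b name. Their differences were 1.22 to 1.65 in KO minus WT, with medians of 2.15 in KO 1 and 0.92 in KO 2, against 0.61 and 0.17 for the H2b sets inside the rule. In the 2 H2a sets left out, which also name H2ax, the median was 0.95 in KO 1 and 0.46 in KO 2.

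H3 and H4 form the tetramer at the core of the nucleosome. Of the H3 probe sets, 10 are annotated to the same 12 genes (H3c1, H3c2, H3c3, H3c4, H3c6, H3c7, H3c8, H3c10, H3c11, H3c13, H3c14 and H3c15), so they cannot say which of these genes was higher and are not independent of one another. Probe set 10404049 read 12.54 and 12.28 in KO 1A and 1B, 11.44 and 11.23 in KO 2A and 2B, and 10.03, 10.64, 10.38 and 9.81 in WT 1A, 1B, 2A and 2B. The lowest KO-labelled array was KO 2B and lay above the highest WT array, WT 1B. KO 1 exceeded WT by 2.19 ± 0.22 log2 (4.58-fold, limma adjusted p = 7.3e-05) and KO 2 exceeded it by 1.12 ± 0.22 (2.17-fold, limma adjusted p = 0.0474), while KO minus WT was 1.66 ± 0.39 (limma adjusted p = 0.273).

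The 10 shared H3 sets differed little from one another, from 1.97 to 2.19 in KO 1 and from 0.93 to 1.12 in KO 2. All 10 were called in KO 1 and in KO 1 minus KO 2, and 5 in KO 2. The shares of all probe sets called higher there were 25.6%, 22.5% and 0.622%. The 3 H3 sets with 1 symbol had smaller differences. H3c4 (10404038) read 6.55, 6.61, 6.62 and 6.5 in the KO-labelled arrays and 6.15, 6.23, 6.2 and 6.18 in WT, a difference of 0.37 ± 0.11 in KO 2 (limma adjusted p = 0.287) and 0.38 ± 0.11 in KO 1 (limma adjusted p = 0.0137). These became 0.34 and 0.68 after quantile normalization, and 0.33 and 0.63 after median centring. H3c15 was at 0.28 and 0.23, and H3c7 (10404030), the lowest H3 set, read 4.44 to 4.59 in all arrays with differences of 0.04 and 0.03, none of them called. In KO 1, H3c15 was called at 0.51 after quantile normalization and 0.52 after median centring (limma adjusted p = 0.0389 and 0.0189), and H3c7 at 0.28 after median centring (limma adjusted p = 0.0289). All these genes are also among the 12 of the shared sets.

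**Figure D2:**
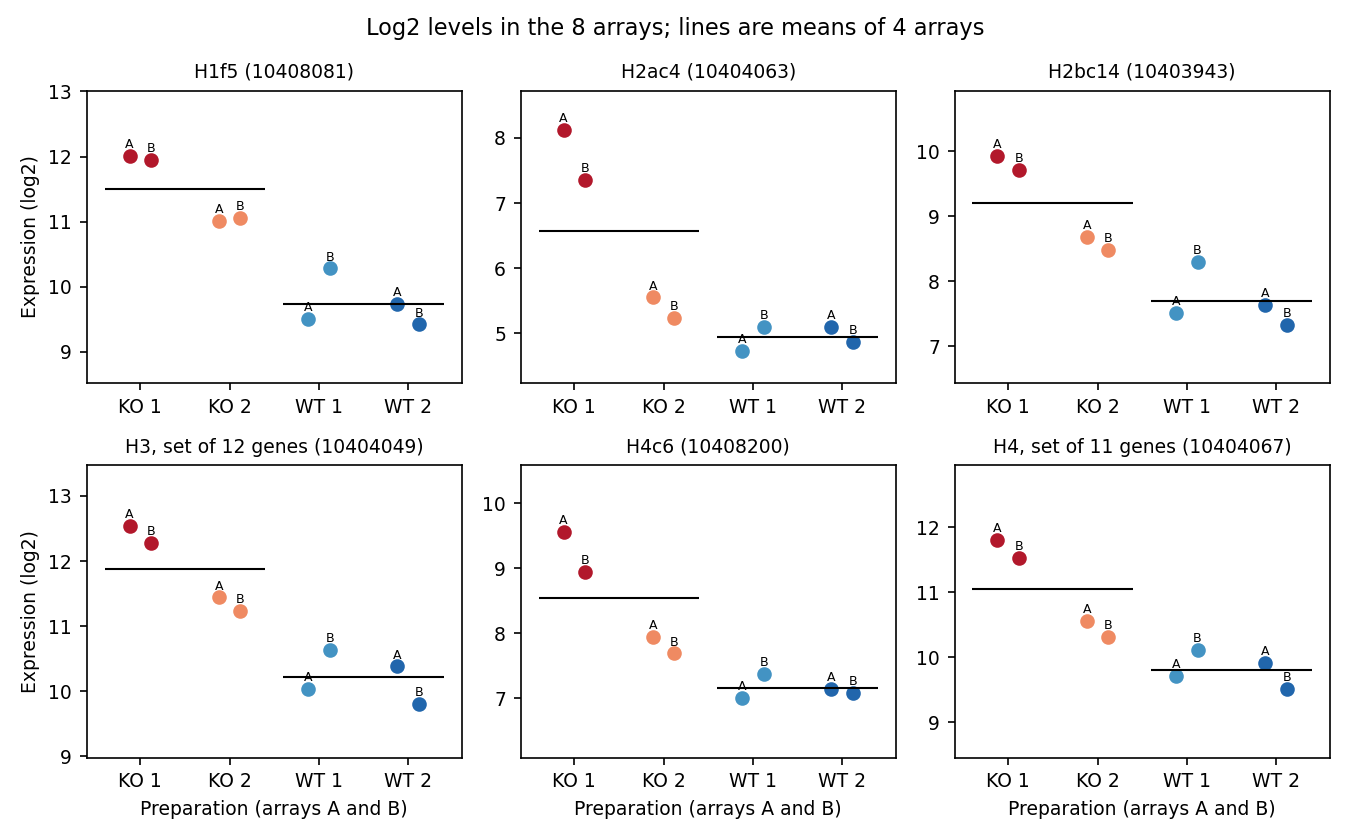
Log2 expression (vertical axis) of 6 histone probe sets in arrays A and B of each preparation (horizontal axis); horizontal lines are means of 4 arrays and each panel spans the same number of log2 units. KO 1 is highest throughout, KO 2 lies between KO 1 and WT, and WT 1B is the highest WT array, with H2ac4 at 8.13 and 7.35 in KO 1 against 5.55 and 5.24 in KO 2.

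For H4, 5 probe sets are annotated to the same 11 genes (H4c1, H4c2, H4c3, H4c4, H4c6, H4c8, H4c9, H4c11, H4c12, H4c17 and H4c18). A pair of these, 10403957 and 10408092, hold identical values and count as 1 measurement. Probe set 10404067 read 11.8 and 11.53 in KO 1, 10.56 and 10.32 in KO 2, and 9.72, 10.11, 9.91 and 9.51 in WT, with KO 2B above WT 1B. The 5 sets were higher by 1.81 to 1.96 in KO 1, all called, beside 25.6% of all probe sets. In KO 2 they were higher by 0.55 to 0.63, none called, beside 0.622%.

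Single H4 genes ranged widely. H4c6 (10408200) read 9.56 and 8.94 in KO 1, 7.95 and 7.69 in KO 2, and 7.01, 7.37, 7.15 and 7.08 in WT, with no overlap. It was 2.1 ± 0.19 log2 higher in KO 1 (limma adjusted p = 4.7e-05), 0.67 in KO 2 (limma adjusted p = 0.238) and 1.43 higher in KO 1 than in KO 2 (limma adjusted p = 0.00311). H4c4 (10404051) read 10.98 and 10.74 in KO 1, 9.5 and 9.31 in KO 2, and 8.75, 9.34, 8.81 and 8.47 in WT. Here KO 2B was below WT 1B, so the groups overlapped, and the difference was 2.02 in KO 1 (limma adjusted p = 6.6e-05) and 0.56 in KO 2 (limma adjusted p = 0.425).

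H4c14 was called at 1.32 in KO 1, H4c3 at 0.86, H4c9 at 0.58 and H4c8 at 0.53, and these had 0.36, 0.02, 0.18 and 0.06 in KO 2, not called. H4c8 (10404024), the lowest H4 set, read 6.0 and 5.69 in KO 1, 5.45 and 5.3 in KO 2 and 5.37, 5.46, 5.35 and 5.08 in WT, with the groups overlapping. The set shared by H4c11 and H4c17 was the 1 H4 set not called in KO 1 (0.37, limma adjusted p = 0.138), and after median centring it was called too (0.61, limma adjusted p = 0.0445). Of the 24 replication-dependent probe sets with 1 symbol, the 10 with a mean of at least 7 log2 had a median difference of 1.52 in KO 1 and 0.45 in KO 2. The 14 with a mean below 7, near or under the array medians, had medians of 0.32 and 0.15. That division was made after the values were seen. Its mean was taken over KO-labelled and WT arrays together, so a higher KO-labelled level itself moved a set toward the brighter group. H2ac15, for example, had means of 6.78 in WT and 7.83 in KO-labelled arrays. The contrast between bright and dim sets is therefore partly built in. How far the dim sets stand above background is not known from the values used here.

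**Figure D3:**
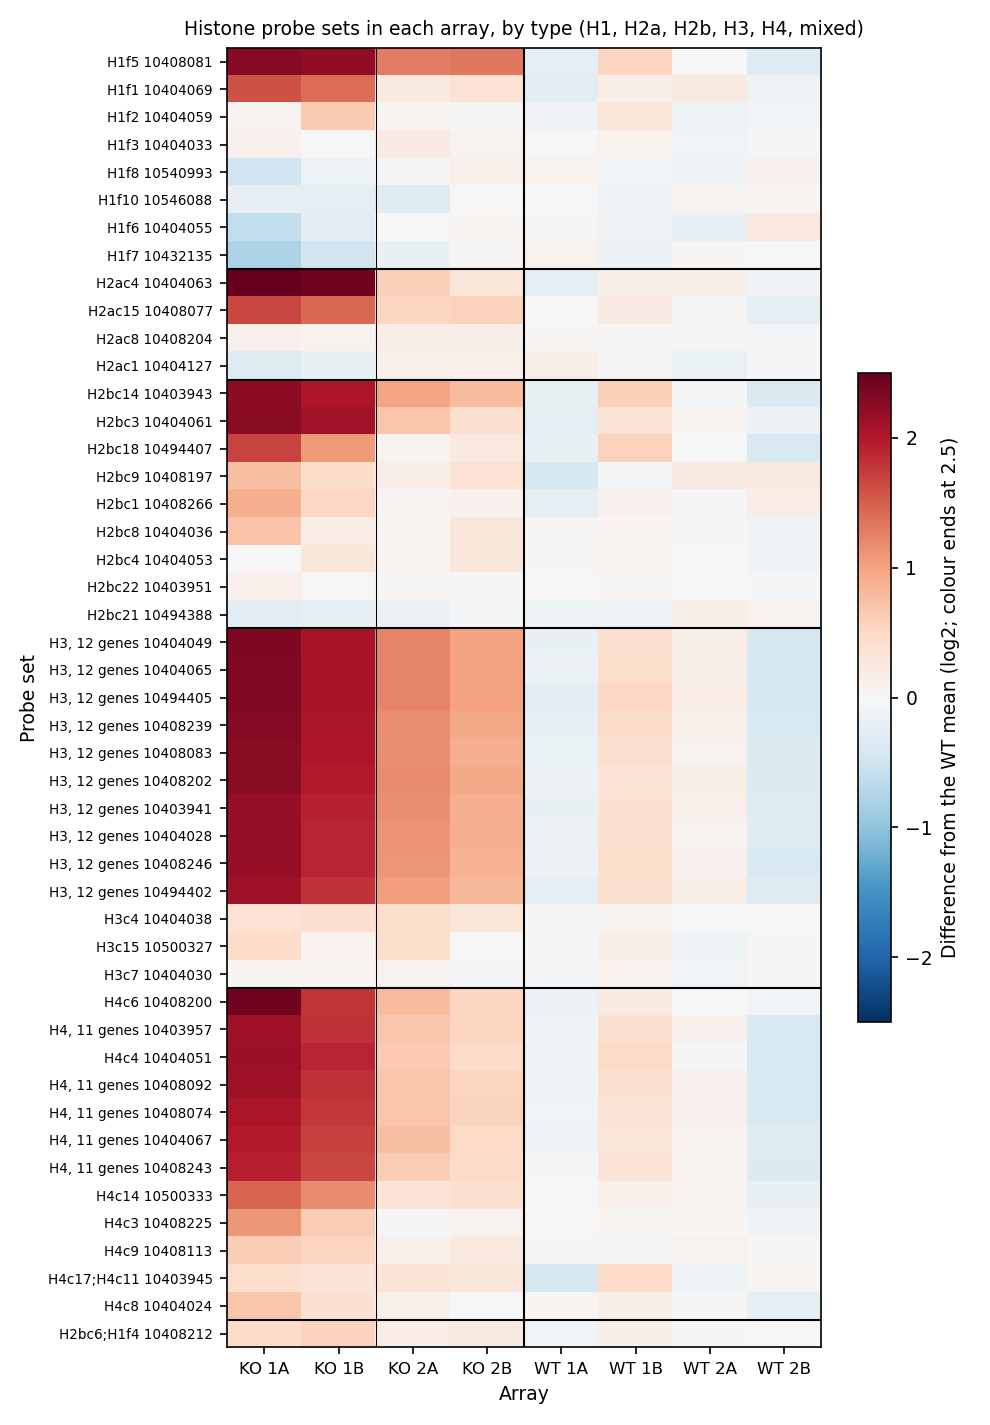
Difference from the WT mean in log2 (colour, ending at 2.5) of all 47 histone probe sets (rows, by type and then by KO minus WT difference) in the 8 arrays (columns). The dark red blocks are the H3 and H4 sets and single H1, H2a and H2b genes in KO 1A and KO 1B, paler in KO 2, and germ line H1 genes are pale or blue.

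Genes that act with the histones were read from 4 lists, 1 probe set a gene. No gene of these lists was called in KO minus WT by limma, with 32 of 83 higher at an unadjusted p under 0.05, beside 4.99% of all probe sets. Background below is the share of all probe sets called higher. Of 20 genes that transcribe or process histone mRNA, 17 were called higher in KO 1 (background 25.6%) and 0 in KO 2 (0.622%). Slbp, which binds the stem-loop, read 9.77 and 9.69 in KO 1, 8.45 and 8.25 in KO 2 and 7.74, 8.48, 8.29 and 7.83 in WT. KO 1 stood apart by 1.64 ± 0.22 (limma adjusted p = 3.6e-04), while KO 2 overlapped WT (0.26, limma adjusted p = 1). Npat read 8.15 and 8.05 in KO 1, 7.03 and 7.08 in KO 2 and 6.91, 7.56, 7.31 and 7.17 in WT, which gave 0.86 in KO 1 (limma adjusted p = 0.00298) and -0.18 in KO 2. Cpsf2, a cleavage factor of histone pre-mRNA, was at 1.24 and 0.37, and Cstf2 at 0.94 and 0.2.

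The histone chaperones, which carry new histones to DNA, had 17 of 22 genes called higher in KO 1 (background 25.6%) and 0 in KO 2 (0.622%). After quantile normalization 11 were called in KO 1 (background 18.9%). In that fit 13 of the 20 mRNA processing genes were called. For the lists described below it called 4 of 8 replacement variants and 30 of 33 S phase genes. Asf1b, the H3-H4 chaperone of dividing cells, read 10.65 and 10.51 in KO 1, 9.39 and 9.33 in KO 2 and 8.75, 8.85, 8.7 and 8.72 in WT. The WT arrays were close together and every KO-labelled array was above them, by 1.82 ± 0.14 in KO 1 (limma adjusted p = 1.6e-05) and 0.6 ± 0.14 in KO 2 (limma adjusted p = 0.109). Chaf1b and Chaf1a, subunits of the CAF-1 complex that loads H3 and H4 at the fork, were at 1.92 and 1.19 in KO 1 and at 0.41 and 0.18 in KO 2.

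Among the replacement variants, which are made throughout the cell cycle or serve special chromatin, 5 of 8 genes were called higher in KO 1 (background 25.6%) and 0 in KO 2 (0.622%). H2az1, the H2A variant of promoters, read 12.1 and 12.08 in KO 1, 11.73 and 11.66 in KO 2 and 10.07, 10.98, 10.72 and 10.34 in WT. Here KO 2 lay close to KO 1: the differences from WT were 1.56 ± 0.23 (limma adjusted p = 5.8e-04) and 1.16 ± 0.23 (limma adjusted p = 0.0521), and KO 1 minus KO 2 was 0.4 ± 0.26 (limma adjusted p = 0.21). H2ax, which is phosphorylated at DNA breaks, was at 1.54 and 0.53, Cenpa, the centromeric H3, at 1.17 and 0.48, and H3f3a at -0.13 and 0.01.

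Of 33 S phase genes, 31 were called higher in KO 1 (background 25.6%) and 2 in KO 2 (0.622%; 0 of the 33 after median centring), and 33 had a difference above 0 in KO minus WT, beside 40.4% of all probe sets. Rrm2, the small subunit of ribonucleotide reductase, read 10.25 and 10.06 in KO 1, 8.5 and 8.23 in KO 2 and 7.37, 7.61, 7.69 and 7.49 in WT. It was 2.61 ± 0.16 log2 higher in KO 1 (limma adjusted p = 4.2e-06) and 0.82 ± 0.16 in KO 2 (limma adjusted p = 0.0445), with no overlap between the groups. Ccna2, cyclin A2, was at 2.21 and 0.8, the latter also called, and Uhrf1, which follows the fork with DNA methylation, at 1.38 and 0.51. The medians in KO 1 and KO 2 were 1.41 and 0.33 for S phase genes, 0.86 and 0.06 for histone mRNA processing, 0.74 and 0.08 for chaperones, and 0.88 and 0.07 for variants, beside 1.81 and 0.55 for the 41 replication-dependent histone sets. After quantile normalization the KO 1 medians were 1.07 for S phase genes, 0.47 for mRNA processing, 0.41 for chaperones and 0.42 for variants. The histone sets then had 1.45. These medians are not like for like. The other lists hold 1 probe set a gene, with 1 symbol, while the histone sets include the shared H3 and H4 sets. As deposited, the 30 histone members with 1 symbol, germ line and replacement ones included, had medians of 0.49 in KO 1 and 0.16 in KO 2. Foxp3 was at 1.11 ± 0.19 in KO 1 (limma adjusted p = 0.00116) and 0.57 in KO 2 (limma adjusted p = 0.359), and the share of cells in S phase in each preparation was not measured.

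**Figure D4:**
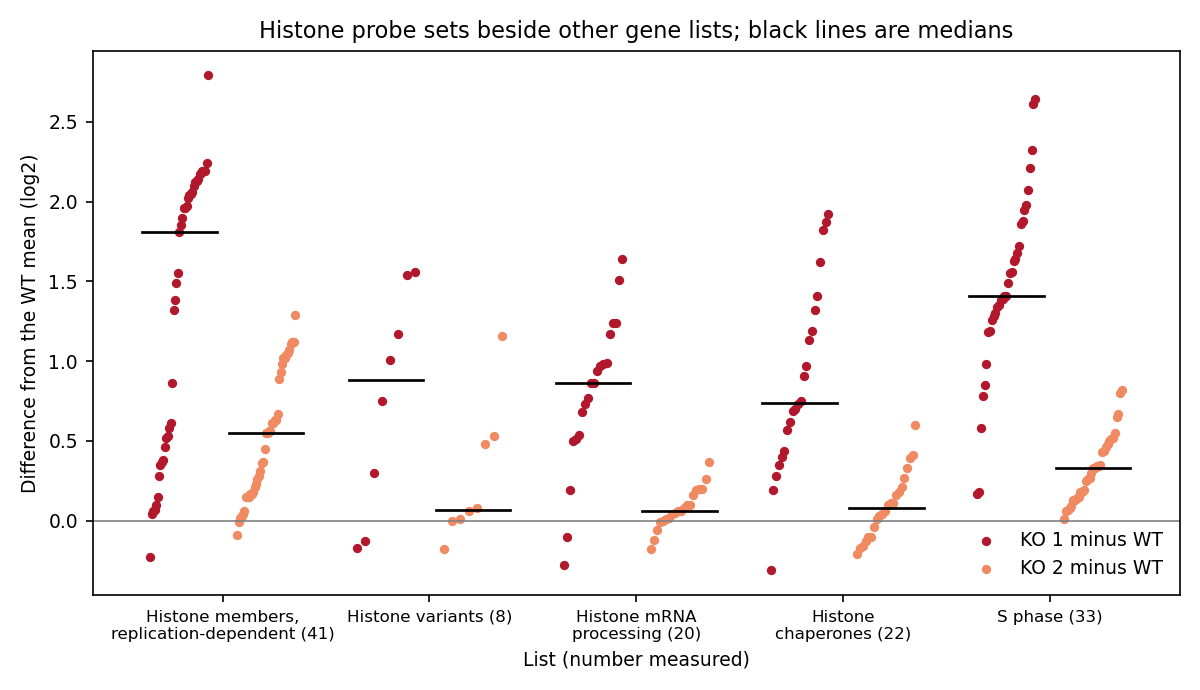
Difference from the WT mean in log2 (vertical axis) of the replication-dependent histone probe sets and of the genes of 4 other lists (horizontal axis), for KO 1 in dark red and KO 2 in orange, with medians as black lines. The histone medians of 1.81 and 0.55 stand beside 1.41 and 0.33 for S phase genes, and most other genes are near 0 in KO 2. The histone sets include the shared H3 and H4 sets, while the other lists hold 1 probe set a gene. The 30 histone members with 1 symbol had medians of 0.49 and 0.16.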

How the data were processed

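Expression was measured on 8 Affymetrix arrays, 4 KO-labelled and 4 WT. The deposited values are log2 levels per probe set, which the authors obtained with Partek and RMA, per the submitters' processing notes; no version is given in the sources used. RMA usually normalizes between arrays, but the deposited arrays still differed in spread, which can widen differences for whole groups of genes. No further normalization was applied, and 0 columns of per-sample values were left unused. Of 28768 probe sets, 21771 had 1 gene symbol in the platform annotation, which can be old, 1557 several and 5440 none, and names were updated through RefSeq (GRCm38.p6), where all 47 member genes were found.

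All probe sets were fitted with limma 3.58.1 in R 4.3.3 (lmFit, eBayes with a variance trend, two-sided, Benjamini-Hochberg). KO minus WT had the labelled preparation as a random block, with an estimated correlation of 0.596 and 11.6 degrees of freedom. A second fit had 1 mean per preparation (10.5 degrees of freedom) and compared KO 1 and KO 2 with WT and with each other, so that its error is the spread between arrays A and B only. Fold differences are powers of 2 of the log2 difference, errors are SE of the fit, and the fits were tested on simulated data. There the KO minus WT fit recovered 0% of changes of 0.5 log2, 41.5% of 1 log2 and 90.5% of 2 log2. A difference not called in that fit is therefore not shown to be absent.

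The members and gene lists were chosen with earlier results of these data known, so lists got counts and medians and no test. Probe sets were named if among 10 by smallest p that were called in KO minus WT or KO 1 minus KO 2, or highest or lowest of their type; of each other list, up to 3 genes by smallest p, with Slbp, Npat, H2az1, Foxp3 and Bcl6. Other genes were named after their values were seen. Python 3.11.15 searched the promoters. The alternatives were other blocks, variance models, weights, scalings, filters and probe set choices, and leaving out arrays or preparations.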

Additional observations from a re-analysis of the deposited data

How the results depend on the processing

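The correlation of deviations between KO-labelled and WT arrays of the same label was -0.677, 0.762, -0.405 and 0.669 for 1A, 1B, 2A and 2B. These values differed in sign and do not decide whether replicate numbers pair the samples. Over all probe sets, 30 were called higher and 11 lower in KO minus WT. With a replicate block for the number these were 544 and 94, for the letter 48 and 30, and for both 95 and 34. They were 107 and 43 with no random block, 19 and 22 on preparation means, 75 and 26 with array weights, 106 and 44 after quantile normalization, and 2074 and 988 with the array SD as a covariate. Median centring gave 19 higher, while a mean of at least 6 gave 6 lower and 1-symbol probe sets 4 lower. Without KO 1 they were 157 and 34, without KO 2 they were 7275 and 10666, without WT 1 they were 12 and 20, and without WT 2 there were 7 higher. Leaving out 1 array gave 19 to 53 higher and 10 to 23 lower. The causes were not tested.

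Histone members called higher in KO minus WT, 0 in the fit reported, were 5 with no random block, 21 with the replicate block for the number, 10 for number and letter, 1 with array weights, 1 after quantile normalization, 24 with the array SD, 2 without KO 1, 33 without KO 2, and 0 to 1 on leaving out 1 array (1 without WT 1B). Their median difference of 0.84 became 0.33 with the array SD, 1.28 at a mean of at least 6, 0.34 for 1-symbol sets, 0.36 without KO 1, 1.38 without KO 2 and, chosen after seeing the data, 0.37 with sets of the same genes averaged. The shared H3 and H4 sets therefore raise it. In KO 1 minus WT 33 of the 47 members were called higher, and 17 of the 30 with 1 symbol, beside 25.6% of all probe sets. The counts among 1-symbol sets that follow are also out of 30. The 6 in KO 2 minus WT, beside 0.622% of all probe sets, became 0 after median centring, beside 0.469%. They became 1 with no variance trend and 1 among 1-symbol sets. Their count was not stable on leaving out 1 array. The shares of all probe sets called with no variance trend and on leaving out 1 array are not given here. Those counts therefore do not show whether calling moved for histone genes or for all probe sets. The 29 in KO 1 minus KO 2 became 14 among 1-symbol sets and 2 to 31 on leaving out 1 array. For the named probe sets, 420 of the KO minus WT values kept direction and side of the threshold, 46 passed it only in the alternative and 4 near 0 moved. In KO 1 minus WT 238 kept both and 5 fell below the threshold, in KO 2 minus WT 220 and 13, and in KO 1 minus KO 2 204 and 32.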
